A study of Bos taurus with 20 samples.

Results

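The genes described here are 7 interferon-induced genes of cattle, MX1, MX2, ISG15, IFIT2, IDO1, GBP1 and IFI47, measured in longissimus dorsi, a long muscle beside the spine. They were taken by gene symbol from the platform annotation of the deposited expression table, which gave 7 rows of 21475, 1 for each gene, among 11329 genes with a symbol. The muscle came from Piedmontese by Hereford cattle and from Wagyu by Hereford cattle. Both crosses thus have a Hereford parent, and the labels name no treatment or engineered allele. The Piedmontese is a heavily muscled breed that carries an inactive form of the growth inhibitor myostatin, and the Wagyu is a breed with marbled meat. Each cross was sampled at 60, 135, 195 and 280 days of gestation and at 3, 7, 12, 20, 25 and 30 months after birth. The table's 20 columns hold 1 cross at 1 age each, and a column stands for 3 animals before birth and 4 animals after it. The crosses therefore served as the 2 samples of an age, and p-values measure the spread between such columns.

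Interferons are secreted proteins that cells release on sensing viral nucleic acid or, for interferon gamma, that activated lymphocytes release. They bind surface receptors and act through JAK kinases and STAT transcription factors, which switch on a large set of genes. Type I interferons (alpha and beta) and interferon gamma bind different receptors, and the sets of genes they induce overlap but are not the same. Muscle fibres, endothelium and the immune cells within muscle can all respond.

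MX1 and MX2 encode dynamin-like GTPases that restrict viruses, ISG15 a ubiquitin-like protein that is attached to other proteins, and IFIT2 a protein that binds RNA and restrains viral translation. These genes are classical targets of type I interferon. IDO1 encodes the enzyme that begins tryptophan breakdown along the kynurenine pathway, GBP1 a guanylate-binding GTPase of defence against microbes inside cells, and IFI47 a GTPase that in mouse belongs to the interferon gamma-inducible IRG family. In the current bovine gene table MX1 and MX2 are neighbours, IFIT2 lies next to IFIT3, IDO1 next to IDO2, and GBP1 next to GBP5.

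Values are log2 levels on the scale the authors deposited, whose normalisation is not given in the sources used here. Column medians ran from 5.88 to 7.36. The tissue label was checked against 10 muscle fibre genes: after birth they averaged 19.76 to 20.31, near the top of the table's range, and in the fetal columns 13.66 to 20.17. The 72 RNA samples were run on 36 arrays, each holding both crosses at 1 age, and the number of arrays limits the precision. The fetal ages used 3 slides, the ages from 3 to 20 months used another 4, and the last 2 ages used 2 more, so that 0 slides were shared. A change across birth or from 20 to 25 months therefore cannot be told apart from a change of slides. In bulk muscle, fewer cells of a type and less RNA per cell cannot be told apart either.

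MX1 followed a double-peaked course, with one crest at 195 days of gestation and a higher one in the first months of life. In the Piedmontese cross its level at 60, 135, 195 and 280 days was 4.85, 6.99, 8.13 and 5.14, and at 3, 7, 12, 20, 25 and 30 months it was 8.75, 9.44, 7.28, 6.60, 7.11 and 6.49. In the Wagyu cross the fetal levels were 4.96, 6.85, 8.05 and 5.86 and the postnatal levels 9.41, 9.65, 7.48, 6.63, 7.06 and 5.99. When the 10 ages were ordered by level, 0 of the 9 neighbouring pairs of ages overlapped between columns. The Piedmontese minus Wagyu difference reached -0.72, at 280 days, while the level ranged over 4.80 between columns. How many of all genes have such an order was not counted. The order from high to low was 7 months, 3 months, 195 days, 12 months, 25 months, 135 days, 20 months, 30 months, 280 days and 60 days.

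ISG15 traced the same outline. Its level in the Piedmontese cross was 5.51, 6.69, 7.87 and 5.21 at the 4 fetal ages, then 8.76, 9.44, 8.79, 7.33, 8.0 and 7.15 after birth. In the Wagyu cross it was 4.86, 7.27, 7.73 and 5.67 before birth and 9.61, 10.72, 8.10, 7.29, 7.45 and 6.55 after it. The Wagyu column of 7 months was the highest of all 20 for MX1, MX2 and ISG15 alike. Ordered by level, 5 of the 9 neighbouring pairs of ages overlapped for ISG15, among them 7 with 3 months and 3 with 12 months. Over the 20 columns MX1 and ISG15 had a Pearson r of 0.94, a description over columns that share ages, slides and the 2 crosses.

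MX2, the neighbour of MX1 on the chromosome, stayed within a narrow band. In the Piedmontese cross it was 4.05, 4.03, 4.17 and 4.27 before birth and 4.16, 4.78, 4.52, 3.76, 4.23 and 3.88 after it. In the Wagyu cross it was 4.61, 3.67, 3.89 and 4.59 before birth and 4.48, 5.48, 4.16, 4.00, 4.05 and 3.98 after it. Only the 7-month columns stood above those of the next age in the order, and the other 8 of 9 neighbouring pairs overlapped. Over the 12 postnatal columns r with ISG15 was 0.91 and with MX1 0.80, while over all 20 columns these were 0.43 and 0.41.

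IFIT2 varied least of the 7 genes, by 0.87 between its lowest and highest column. The Piedmontese levels were 4.80, 4.60, 4.22 and 3.97 in the fetal columns and 3.93, 4.38, 4.17, 4.01, 4.28 and 4.42 in the postnatal ones. The Wagyu levels were 4.50, 4.17, 4.19 and 4.27 in the fetal columns and 4.13, 4.54, 4.18, 4.14, 4.30 and 4.41 in the postnatal ones. Fetal and postnatal levels overlapped. MX2 ranked between 6.85% and 45.8% of the rows of its columns from the bottom and IFIT2 between 15.5% and 35.3%. The table used holds no call of which genes were above background.

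IDO1 was near the bottom of the table before birth and in its middle afterwards. Its Piedmontese levels were 1.02, 0.33, 1.1 and 1.97 at the 4 fetal ages and 7.69, 7.07, 7.66, 6.34, 7.31 and 5.52 at the 6 postnatal ages. Its Wagyu levels were 0.79, 0.17, 1.65 and 2.65, then 8.07, 7.95, 7.20, 5.95, 6.73 and 5.65. The lowest postnatal column lay 2.87 above the highest fetal one. At its lowest, at 135 days in the Wagyu cross, only 0.0093% of the rows of the column were as low, and whether the fetal levels were above background is not known from the table used.

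GBP1 had the same 2-level pattern with more scatter between the crosses. The Piedmontese levels were 3.48, 3.68, 3.08 and 2.56 before birth and 8.0, 7.63, 9.04, 7.86, 8.73 and 6.39 after it. The Wagyu levels were 3.01, 2.96, 3.45 and 3.62 before birth and 7.63, 8.87, 7.05, 7.34, 7.35 and 6.51 after it. All 12 postnatal columns stood above all 8 fetal columns, and among the postnatal ages only 30 months lay below the others in both crosses. For GBP1 as for IDO1, how many of all rows separate in this way was not counted. IDO1 and GBP1 had an r of 0.96 over the 20 columns and of 0.91 over the 10 differences between the crosses.

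IFI47 climbed in 2 stages, first within gestation and then across birth. Its Piedmontese levels were 3.29, 8.29, 9.92 and 8.48 before birth and 12.19, 11.08, 11.87, 11.34, 11.10 and 10.96 after it. Its Wagyu levels were 4.95, 9.64, 10.97 and 9.53 before birth and 11.81, 11.13, 11.37, 11.11, 10.83 and 10.49 after it. At 60 days both columns were far below every later one. At each of the 4 fetal ages the Wagyu column was above the Piedmontese one.

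**Figure D1:**
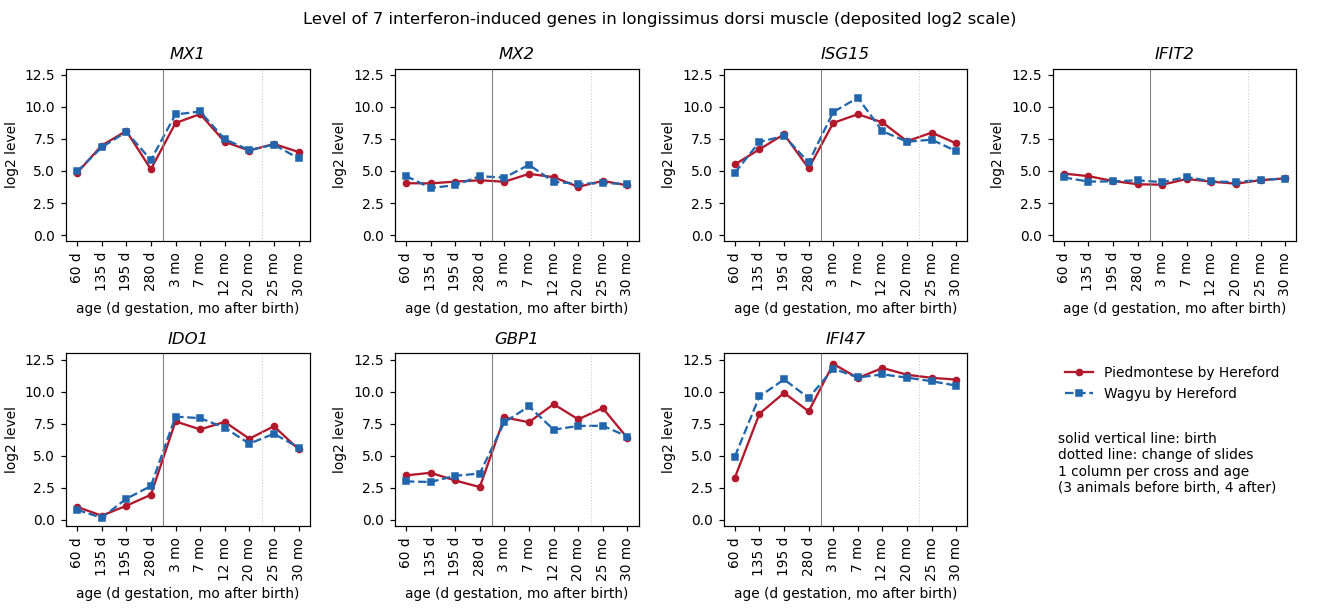
Log2 level on the deposited scale (vertical axis, the same in each panel) of the 7 genes at 10 ages (horizontal axis), 1 point per column, Piedmontese cross as circles and solid line, Wagyu cross as squares and dashed line. MX1 and ISG15 dip at 280 days and peak at 7 months, IDO1 and GBP1 lie below 4 in every fetal column and above 5 in every postnatal one, and MX2 and IFIT2 stay between 3.67 and 5.48.

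Differences between ages were tested with limma across all 21475 rows, with age and cross in the model, and called at a Benjamini-Hochberg adjusted p below 0.05. Over the 10 ages 6 of the 7 genes differed, against 87.4% of all rows, so that count is close to the background. IFIT2 was the exception (adjusted p = 0.16). Between the mean of the 6 postnatal ages and that of the 4 fetal ages, 5 of 7 genes were higher after birth, against 22.2% of all rows. The difference was 5.72 ± 0.15 for IDO1, 4.47 ± 0.25 for GBP1, 3.14 ± 0.22 for IFI47, 1.91 ± 0.19 for ISG15 and 1.30 ± 0.12 for MX1 (log2 units, estimate ± SE). MX2 differed by 0.13 ± 0.12 and IFIT2 by -0.10 ± 0.10, neither past the threshold. With each column centred on its median both passed as higher, MX2 at 0.75 (adjusted p = 0.00017) and IFIT2 at 0.52 (adjusted p = 4.2e-05), which made 7 of 7 higher, against 54.5% of all rows at that scaling.

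From 60 to 195 days of gestation the passing changes between neighbouring ages were all rises. From 60 to 135 days MX1 rose by 2.01 ± 0.26, ISG15 by 1.80 ± 0.41 and IFI47 by 4.85 ± 0.47, so 3 of 7 genes were higher, against 7.56% of all rows. For MX1 the gain was 2.14 in the Piedmontese cross and 1.89 in the Wagyu cross, and for ISG15 it was 1.18 and 2.41. The ISG15 step did not pass without the Wagyu column of 60 days (1.41, adjusted p = 0.052) or of 135 days (1.50, adjusted p = 0.057). From 135 to 195 days MX1 rose by 1.17 ± 0.26, IDO1 by 1.13 ± 0.32 and IFI47 by 1.48 ± 0.47, again 3 of 7, against 5.47% of rows. The ISG15 difference over that interval was 0.82 ± 0.41 (adjusted p = 0.19). MX1 did not pass without the Piedmontese column of 195 days (1.07, adjusted p = 0.077), and IDO1 did not pass when any one of the 4 columns of these ages was left out (0.87 to 1.39) or after quantile normalisation (0.41, adjusted p = 0.53). IFI47 did not pass without the Piedmontese column of 135 or 195 days (0.91 and 1.88), the Wagyu column of 195 days (1.08) or any one column of 7 or 25 months (1.48), nor with a trended robust prior.

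Late in gestation MX1 and ISG15 fell. From 195 to 280 days MX1 fell by 2.59 ± 0.26 and ISG15 by 2.36 ± 0.41, with differences of -2.99 and -2.66 in the Piedmontese cross and of -2.19 and -2.06 in the Wagyu cross. IFI47 fell by 1.44 ± 0.47 (adjusted p = 0.018), which made 3 of 7 genes lower, against 33.6% of all rows. IDO1 rose by 0.93 ± 0.32, the only one of the 7 to do so, against 14.2% of rows. The IFI47 step was -0.61 after quantile normalisation and -0.70 with columns centred on their medians, neither past the threshold, and it did not pass with a trended robust prior or without the Piedmontese column of 280 days (-1.05) or the Wagyu column of 195 days (-1.04). The IDO1 step did not pass after quantile normalisation (0.65), without the Piedmontese column of 195 days (0.67) or without the Wagyu column of 280 days (0.60). MX1 and ISG15 passed at every setting tried over this interval. MX2 (0.40 ± 0.27), IFIT2 (-0.09 ± 0.21) and GBP1 (-0.17 ± 0.55) did not pass. Column medians were 5.88 and 6.30 at 280 days (Piedmontese, then Wagyu), against 6.88 and 6.79 at 195 days. With columns centred on their medians MX2 (1.15) and IFIT2 (0.66) also rose, for 3 of 7 higher and 2 lower, against 50.9% and 20.5% of all rows at that scaling. After quantile normalisation 0 rose and MX1 and ISG15 fell.

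Compared end to end, 280 against 60 days of gestation, MX1 and ISG15 did not pass. MX1 differed by 0.59 ± 0.26 (adjusted p = 0.057, passing at 0.93 without the Piedmontese column of 280 days and at 0.59 without any one column of 3 or 30 months) and ISG15 by 0.25 ± 0.41 (adjusted p = 0.61). IFI47 rose by 4.88 ± 0.47 and IDO1 by 1.40 ± 0.32, so 2 of 7 were higher, against 18.6% of all rows, and IFIT2 fell by 0.53 ± 0.21, 1 of 7, against 42.4% of rows. The IFIT2 call was lost without the Piedmontese column of 60 days (-0.36) or 280 days (-0.37) or either column of 30 months (-0.53). This contrast depends on how the columns are scaled. Column medians were 5.88 and 6.30 at 280 days (Piedmontese, then Wagyu), against 7.36 and 7.28 at 60 days, and the median row differed by -0.34. With columns centred on their medians 6 of the 7 genes were higher and 0 lower, IFIT2 among the higher at 0.70, but so were 59.8% of all rows. After quantile normalisation IDO1 (0.32) no longer passed and MX1 (1.24) did.

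Across birth 5 of the 7 genes rose together, against 13.8% of all rows, and 0 fell, against 14.8%. IDO1 had 7.69 and 8.07 at 3 months (Piedmontese, then Wagyu), against 1.97 and 2.65 at 280 days, a rise of 5.57 ± 0.32. GBP1 had 8.0 and 7.63 at 3 months, against 2.56 and 3.62 at 280 days, a rise of 4.72 ± 0.55. These were the largest of the 7 differences across birth. ISG15 rose by 3.75 ± 0.41, MX1 by 3.58 ± 0.26 and IFI47 by 3.00 ± 0.47. The adjusted p-values ran from 9.83e-09 for IDO1 to 0.00024 for IFI47, and in both crosses the 3-month column was above the 280-day column for each of the 5 genes. MX2 (-0.11 ± 0.27) and IFIT2 (-0.09 ± 0.21) did not pass. The 5 calls held at every setting tried, with changes from 2.60 for IFI47 to 5.93 for IDO1. The median row differed by -0.14.

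After birth MX1 and ISG15 came down again, and IDO1 with them. At 30 months against 3 months MX1 fell by 2.84 ± 0.26, ISG15 fell by 2.33 ± 0.41 and IDO1 fell by 2.29 ± 0.32 (adjusted p = 7.74e-06, 0.0012 and 0.00025), which made 3 of 7 genes lower, against 3.49% of all rows, and 0 higher, against 18.4%. The median row moved the other way, by 0.31. GBP1 differed by -1.37 ± 0.55 (adjusted p = 0.082) and IFI47 by -1.27 ± 0.47 (adjusted p = 0.062). GBP1 passed without either column of 12 months (adjusted p = 0.048) and IFI47 without any one column of 60 or 135 days (adjusted p = 0.030 and 0.047). MX2 was at -0.39 ± 0.27 and IFIT2 at 0.39 ± 0.21, neither past the threshold. After quantile normalisation 5 of 7 genes were lower, with MX2 at -1.08 and IFI47 at -1.46, against 12.4% of all rows. Within the slide set of 3 to 20 months the fall was already there: at 20 months against 3 months MX1 was at -2.46, ISG15 at -1.88 and IDO1 at -1.73, again 3 of 7, against 3.96% of rows.

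The postnatal decline was not spread evenly over the months. From 3 to 7 months 0 of 7 genes passed, against 1.27% of rows in either direction. At an unadjusted p below 0.05 limma gave ISG15 (0.89 ± 0.41) and MX2 (0.81 ± 0.27). From 7 to 12 months MX1 fell by 2.17 ± 0.26, the only one of the 7, against 0.587% of rows, and the difference was -2.17 in either cross. ISG15 differed by -1.63 ± 0.41 over that interval (adjusted p = 0.053), by -0.65 in the Piedmontese cross and -2.62 in the Wagyu cross. It passed with the lowest 25% of rows left out, without any one column of 60 or 135 days (-1.63) or without the Piedmontese column of 7 months (-2.32). From 12 to 20 months IDO1 fell by 1.28 ± 0.32 (adjusted p = 0.046), 1 of 7, against 1.95% of rows. This call was lost after quantile normalisation (-1.01), with centred columns (-1.02) and without any one of 10 single columns (-1.58 to -0.98). From 20 to 25 months, where the slides change, 0 genes were higher, against 8.71% of rows. The unadjusted p was below 0.05 for IDO1 alone (0.87 ± 0.32). From 25 to 30 months IDO1 fell by 1.43 ± 0.32, again 1 of 7, against 0.619% of rows, and the call was lost without the Piedmontese column of 25 months (-1.06) or without either column of 30 months (-1.40 and -1.46).

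**Figure D2:**
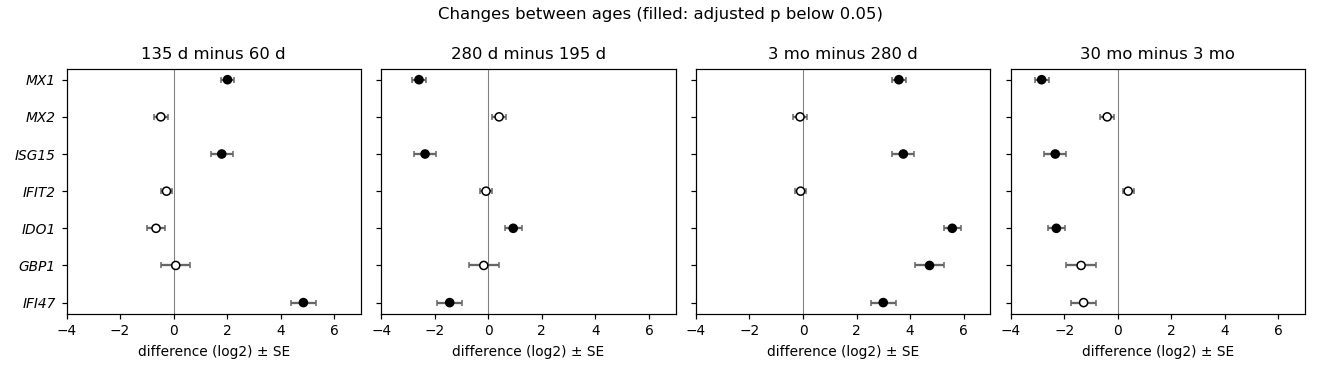
Difference in log2 level (horizontal axis, bars are the standard error) of the 7 genes for 4 comparisons of ages, later minus earlier, with points filled where the adjusted p was below 0.05. MX1 and ISG15 swing up, down, up and down, while the widest differences of IDO1 and GBP1 in these panels are between 280 days and 3 months, at 5.57 and 4.72.

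Other genes of the type I interferon response were followed on a list of 64 symbols, of which 33 were measured. These lists were chosen with earlier results of these data known, and their counts are a description. From 60 to 135 days 10 rose and 2 fell, against 7.56% and 12% of all rows. RTP4, a chaperone of membrane receptors that interferon induces, was higher by 1.99 and IFI35 by 1.60, while IFIT3 fell by 1.1 and ZBP1 fell by 1.01. From 195 to 280 days 24 of 33 fell and 3 rose, against 33.6% and 14.2% of all rows. DHX58, a sensor of viral RNA, fell by 3.73 ± 0.27 and UBA7, the enzyme that activates ISG15 for its attachment, by 2.79 ± 0.30, whereas ISG20 (1.76) and PNPT1 (1.42) rose. ISG20 lay between 2.36 and 4.67 in the fetal columns, where lower quartiles of columns ran from 3.99 to 4.87 over the table. The list's median was -1.07 and that of all rows -0.16. With columns centred on their medians the split was 15 lower and 7 higher, against 20.5% and 50.9% of all rows. From 60 to 135 days it was then 15 higher and 1 lower, against 17.9% and 9.25% of all rows.

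Across birth 21 of the 33 rose and 0 fell, against 13.8% and 14.8% of all rows, with a median of 1.31 beside -0.14 for all rows. RTP4 had 9.34 and 9.79 at 3 months, against 5.51 and 7.25 at 280 days, a rise of 3.18 ± 0.39, and the Tudor domain protein TDRD7 had 10.43 and 10.56, against 7.12 and 7.79, a rise of 3.04 ± 0.26. From 3 to 30 months 14 fell and 1 rose, against 3.49% and 18.4% of all rows (22 and 1 after quantile normalisation, 19 and 1 with centred columns). RSAD2, which encodes the antiviral enzyme viperin, had 6.15 and 6.13 at 30 months, against 7.93 and 8.03 at 3 months, and it fell by 1.84 ± 0.24. EPSTI1 fell by 1.68 ± 0.33, and OAS1Z, of the family of oligoadenylate synthetases, rose by 0.93 ± 0.26. OAS1Z was low, between 4.03 and 5.44 after birth, and this interval spans a change of slides. Between 20 and 3 months, within 1 slide set, 11 were lower and 0 higher, against 3.96% and 0.913% of all rows.

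**Figure D3:**
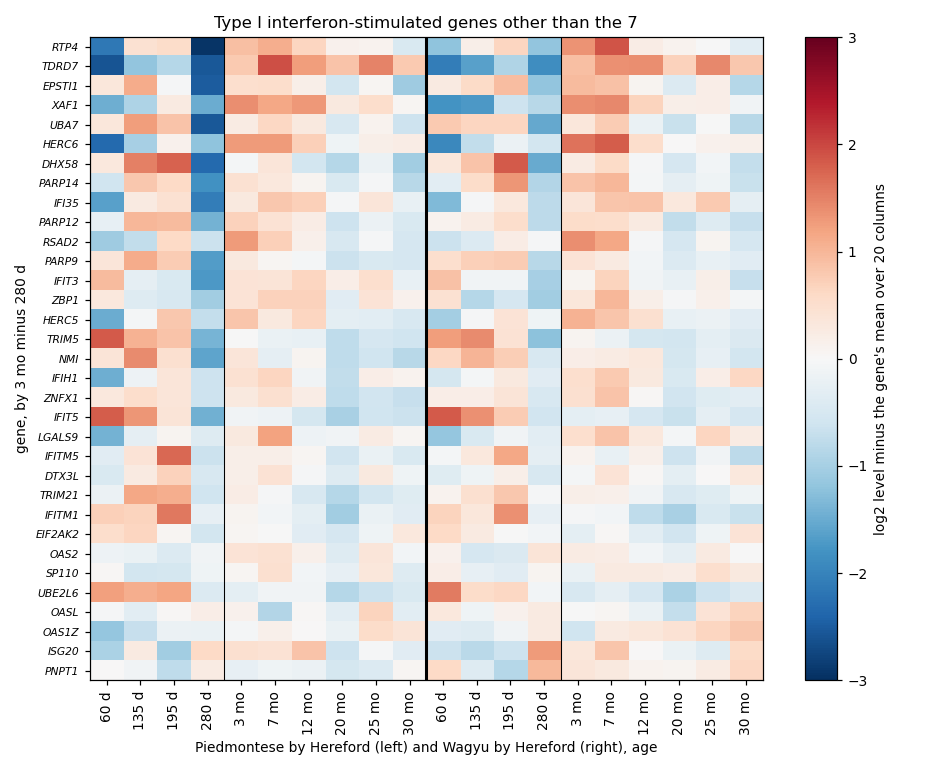
Log2 level of the 33 other type I interferon-stimulated genes measured, each minus its own mean over the 20 columns (colour, cut at 3), with Piedmontese columns left and Wagyu columns right and ages from 60 days to 30 months within each. Genes are ordered by their change across birth, of which 21 are passing rises, and the 280-day columns form a low band in the upper rows of both crosses.

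Genes induced mainly by interferon gamma, the group closest to IDO1, GBP1 and IFI47, were followed in the same way. The list also holds IRGC and IRGQ, taken as members of the IRG family, whose response to interferon was not tested. Of 24 measured, 14 rose and 0 fell from 60 to 135 days, against 7.56% and 12% of all rows. The rises were led by UBD (3.31 ± 0.46), a ubiquitin-like modifier, and CD74 (2.54 ± 0.24), the chaperone of class II histocompatibility molecules. From 195 to 280 days 15 fell and 3 rose, against 33.6% and 14.2% of all rows. The chemokine CXCL10 fell by 3.30 and CD74 fell by 3.03, and LAP3 (1.22) and NLRC5 (1.05) rose most. With centred columns that split was 10 lower and 6 higher, against 20.5% and 50.9% of all rows. Across birth 16 rose and 1 fell, against 13.8% and 14.8% of all rows. CD74 rose by 5.34 ± 0.24 and CIITA, the master activator of class II genes, by 4.51 ± 0.35. The one that fell was the IRG family member IRGC, by 0.69 ± 0.23, at low levels (4.26 to 4.99 after birth). From 3 to 30 months CIITA fell by 2.23, CD74 fell by 1.05 and 0 rose, so 2 of 24 fell, against 3.49% of all rows. After quantile normalisation 9 fell, and with centred columns 5, against 12.4% and 7.21% of all rows.

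Of 20 symbols of the interferons themselves 5 were measured, IFNAC, IFNB1, IFNG, IFNW1 and IFNK. Across birth 0 of the 5 passed in limma, against 28.6% of all rows in either direction, and 1 had an unadjusted p below 0.05. Their mean level lay between 3.46 and 4.46 after birth and 3.39 and 4.06 before it. IFNK fell by 1.27 from 60 to 135 days and rose by 1.08 from 195 to 280 days. IFNG rose by 0.84 ± 0.22 from 3 to 30 months (limma adjusted p = 0.015), 1 of 5, against 18.4% of all rows. After quantile normalisation 0 of the 5 passed there. From 3 to 20 months, within 1 slide set, 0 of the 5 passed as well. IFNG lay between 3.10 and 4.59 after birth, near the lower quartile of the columns (3.99 to 4.87). Whether such levels were above background is not known. Of 6 receptor chains 2 rose across birth, IFNAR1 by 0.87 ± 0.25 and IFNGR2 by 0.87 ± 0.24, and 0 fell (1 with centred columns). IFNAR1 was low, between 3.86 and 5.42 after birth, while IFNGR2 lay between 12.35 and 12.99. Of all rows 13.8% rose and 14.8% fell across birth. In late gestation 4 of the 6 fell, against 33.6% of rows, and of these IFNAR2 fell by 2.31 and IL10RB fell by 1.78. With centred columns 2 of the 6 fell, against 20.5% of rows.

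Among 11 genes of signal transduction, IRF9, a DNA-binding factor of the type I interferon response, passed in the direction of MX1 in 4 intervals. It rose by 1.27 ± 0.24 from 60 to 135 days, fell by 1.85 ± 0.24 from 195 to 280 days, rose by 1.88 ± 0.24 across birth and fell by 0.91 ± 0.24 from 3 to 30 months. Across birth it was the only one of the 11 to rise (2 rose under either other scaling), while TYK2, a JAK kinase of the type I receptor, was alone in the other direction and fell by 1.11. Of all rows 13.8% rose and 14.8% fell there, so both counts are near the background. Of 17 genes that sense nucleic acids or relay that signal, 6 rose across birth and 3 fell, against 13.8% and 14.8% of all rows. The share that fell is near the background. Of those that rose, IFIH1, DHX58 and ZBP1 were already counted on the type I list. DHX58 rose by 2.02 ± 0.27 and IRF8, a transcription factor of myeloid cells, by 1.79 ± 0.34, while TRIM56 fell by 0.96 and TLR9 fell by 0.78.

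A list drawn around the kynurenine pathway had 12 genes measured beyond IDO1. It also holds genes that are not enzymes of the pathway, among them WARS1, SLC7A5 and SLC3A2. Across birth 2 of the 12 rose, WARS1 by 1.16 ± 0.20 and KYAT3 by 1.08 ± 0.29, and 4 fell. Of all rows 13.8% rose and 14.8% fell, so the share that rose is near the background. KMO fell by 1.01 and SLC7A5 fell by 0.84, the largest of the 4. WARS1 encodes the tryptophan-charging tRNA synthetase, which interferon gamma also induces, and it was already counted on the interferon gamma list. IDO2, the neighbour and paralog of IDO1, went down over gestation. It fell by 1.39 from 60 to 135 days and by 0.81 from 195 to 280 days. From 3 to 30 months, where IDO1 fell, 3 of the 12 rose, against 18.4% of all rows, TDO2 by 0.87 and SLC3A2 by 0.79 the most. After quantile normalisation or with centred columns 0 of them did so.

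**Figure D4:**
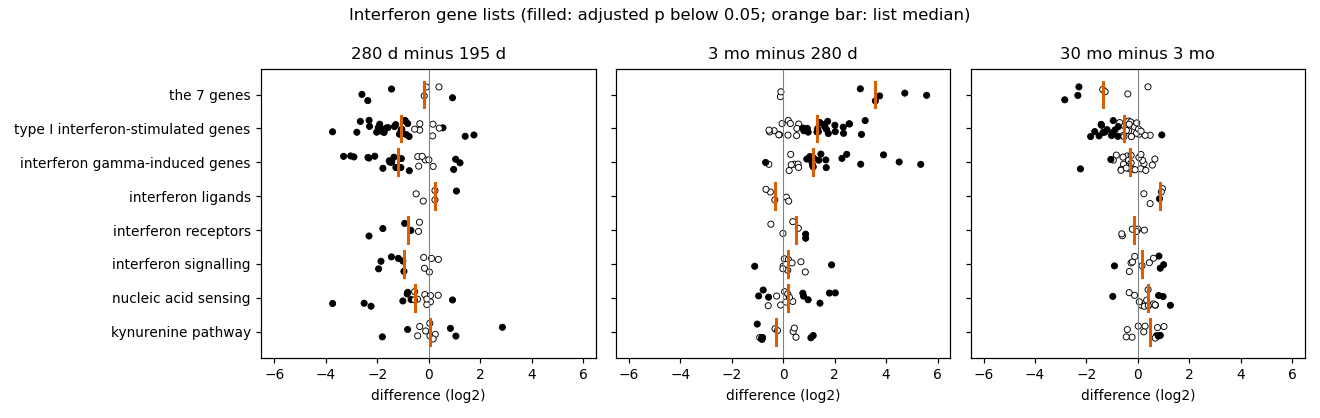
Difference in log2 level (horizontal axis) of each measured gene of 7 interferon-related lists and of the 7 genes (rows), for 280 against 195 days, 3 months against 280 days and 30 against 3 months; filled points have an adjusted p below 0.05 and orange bars are list medians. The type I list lies mostly left of 0 in late gestation (median -1.07), right of it across birth (1.31) and left again afterwards (-0.54).

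Markers of cells other than fibres moved in the same intervals, and their part in these results was not tested. From 60 to 135 days 8 of 10 endothelial and 5 of 10 neutrophil markers rose and 0 fell. Macrophage markers rose in 3 of 12 and B cell markers in 3 of 7, and 0 fell. T and NK cell markers rose in 3 of 19 and fell in 3, and dendritic cell markers rose in 1 of 7. Of all rows 7.56% rose and 12% fell there. Fibre markers rose in 5 of 10 over that interval, and in 9 of 10 from 60 to 280 days (median 4.79), against 18.6% of rows. Their part was not tested either. Across birth 8 of 12 macrophage and monocyte markers rose and 0 fell, with LYZ up by 2.57 and AIF1 by 1.92, and 7 of 19 T and NK cell markers rose and 0 fell, with CD3E up by 2.41 and CCL5 by 2.20. CD3E ran from 5.81 to 6.64 in the postnatal columns and from 2.49 to 4.11 in the fetal ones. Endothelial markers rose in 2 of 10, dendritic cell markers in 1 of 7 and B cell markers in 3 of 7 (2 fell), while 4 of 10 neutrophil markers fell and 1 rose. Of all rows 13.8% rose and 14.8% fell across birth, so the endothelial and dendritic cell counts are near the background. From 195 to 280 days 9 of 12 macrophage markers and 9 of 10 endothelial markers fell, against 33.6% of all rows, with medians of -1.27 and -2.45. With centred columns 6 and 9 of them fell and 1 of each rose, against 20.5% and 50.9% of all rows. With centred columns 9 macrophage markers rose across birth and 1 fell, 7 T and NK cell markers rose and 2 fell, and 4 endothelial markers rose and 1 fell. At that scaling 14.5% of all rows rose and 28.9% fell. From 3 to 30 months 0 of 12 macrophage markers fell and 1 rose, against 3.49% and 18.4% of all rows, so these counts are near the background. Of 19 T and NK cell markers 2 fell (CCL5 at -0.98 and CD4 at -0.81) and 1 rose. After quantile normalisation 5 of them fell and 0 rose, against 12.4% and 11.7% of all rows. The mean level of the macrophage list ran from 7.60 to 8.61 after birth and 6.72 to 9.23 before it, and that of the T and NK cell list from 5.57 to 6.26 and 5.09 to 5.81.

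Between the crosses, over the 10 ages, 0 of the 7 genes passed in limma, against 0.279% of all rows in either direction, and 0 of the 7 had an unadjusted p below 0.05. Of the 104 other genes of the interferon lists 0 passed and 11 had an unadjusted p below 0.05. How many of all rows fell below that unadjusted cutoff was not counted. For the 7 genes the Piedmontese minus Wagyu difference ran from -0.33 ± 0.21 for IFI47 to 0.27 ± 0.25 for GBP1. The widest single gaps after birth were in GBP1, where the difference was 1.99 at 12 months and -1.24 at 7 months, and in ISG15 at 7 months (-1.28). With 1 column per cross and age these single gaps have no test. Each array held both crosses, so the comparison lies within arrays. Dyes were balanced at each postnatal age and split 2 to 1 at each fetal age.

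IFI47 was the exception once fetal and postnatal ages were set apart. The Piedmontese minus Wagyu difference was -1.66, -1.35, -1.05 and -1.05 at 60, 135, 195 and 280 days, and 0.37, -0.05, 0.50, 0.22, 0.26 and 0.47 from 3 to 30 months. It averaged 0.30 ± 0.20 after birth (SD, n = 6 ages) and -1.28 ± 0.29 before it (SD, n = 4 ages). The Piedmontese column was thus lower at all 4 fetal ages and higher at 5 of 6 postnatal ages. In limma's fit to the 10 differences the change was 1.57 ± 0.20 (adjusted p = 0.013), 1 of only 4 rows to pass, and 2 of those 4 changed in this direction, or 0.00931% of rows. The adjusted p was 0.058 after quantile normalisation, 0.072 with centred columns and 0.060 without the columns of 25 months, with changes of 1.41, 1.61 and 1.58. Of the other 6 genes 0 passed, also at an unadjusted p below 0.05, and their changes ran from -0.20 for IFIT2 to 0.54 for GBP1. A shift in this direction was not particular to IFI47. Of 10 muscle fibre markers 0 passed, but 7 had an unadjusted p below 0.05 in limma. The share of all rows below that unadjusted cutoff was not counted. The median change of the 10 markers was 0.88, beside 0.03 for all rows. The part of muscle fibre content in the IFI47 change was not tested.

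**Figure D5:**
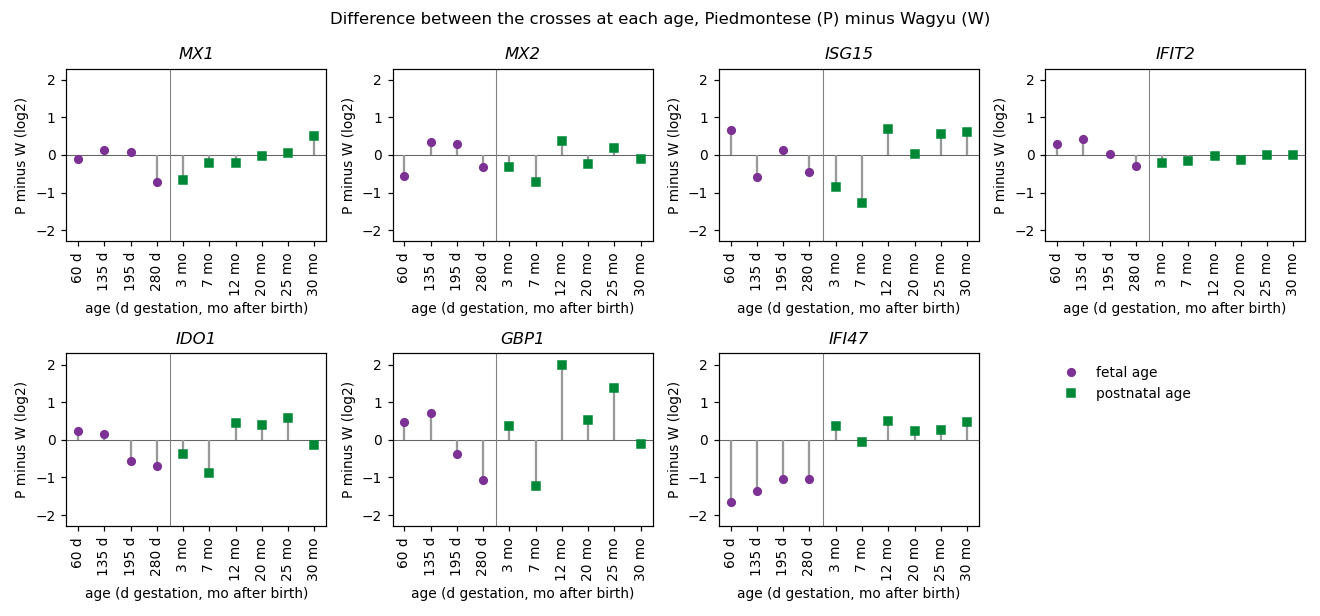
Piedmontese minus Wagyu difference in log2 level (vertical axis) at each age (horizontal axis), 1 panel per gene, circles for fetal and squares for postnatal ages. IFI47 lies between -1.66 and -1.05 at the fetal ages and between -0.05 and 0.50 at the postnatal ages, whereas the other genes scatter on both sides of 0.

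The genes most like each of the 7 over the 20 columns were found by Pearson r across all genes with a symbol, as a description. For MX1 they were ISG15 (0.94), RTP4 (0.90) and RSAD2 (0.90), and for ISG15 they were MX1 (0.94), HERC6 (0.92) and RTP4 (0.90), all interferon-induced genes. For IDO1 they were GBP1 (0.96), SYN1 (0.96) and GLRX5 (0.96), and for GBP1 they were LOC513659 (0.97), LOC781710 (0.96) and IDO1 (0.96). IFI47 was most like MYOC (0.96), PON3 (0.95) and PEBP4 (0.95). MX2 had no close counterpart, TMED8 (0.67), PER1 (0.64) and the oligoadenylate synthetase OAS2 (0.63) being the nearest, and IFIT2 was nearest to PRRT1 (0.83), ISOC1 (0.83) and SNRPA1 (0.82).

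Over the 10 differences between the crosses, which leave out the course with age that the crosses share, the nearest genes were mostly others. These differences can still change between fetal and postnatal ages, as those of IFI47 did. For MX2 they were ZSCAN30 (0.92), the interferon-induced chemokine CXCL10 (0.88) and BTG4 (0.85). For ISG15 they were CCDC112 (0.70), IDO1 (0.69) and HERC6 (0.66), and for MX1 they were CISH (0.84), DUSP10 (0.84) and REXO5 (0.79). For IDO1 they were GBP1 (0.91), SQLE (0.87) and MS4A7 (0.87), and for GBP1 they were CHD1L (0.91), RNF168 (0.91) and IDO1 (0.91). IFI47 was nearest to JCHAIN (0.90), ZBTB18 (0.90) and ANK1 (0.89), and IFIT2 to GRB14 (0.95), KRT8 (0.93) and SLC1A3 (0.93). MX1 and ISG15, at 0.94 over the columns, stood at 0.50 over these differences, while IDO1 and GBP1 stood at 0.91.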

How the data were processed

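Two-colour Agilent arrays measured muscle RNA of 2 crosses at 10 ages. The submitters' processing notes name Agilent Feature Extraction 8.5.1.1 for the scans. The authors deposited 1 value per row and column, read here as log2. The sources used here give neither the normalisation, nor the genome build, nor how animals were combined into a column. All 20 columns matched a labelled sample (0 did not).

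Models on the deposited log2 values used limma 3.58.1 under R 4.3.3 (age as a factor and cross, 9 residual degrees of freedom, eBayes with a constant prior). The cross difference by stage was fitted to the differences at the 10 ages, leaving 8 degrees of freedom. Benjamini-Hochberg adjustment ran over 21475 rows. Tables and figures used Python 3.11.15, pandas 2.3.3, matplotlib 3.10.9 and numpy 2.4.6. The code was tested on simulated data with 200 rows changed.

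The 7 genes and the lists were chosen with earlier results of these data known. Of each list, up to 2 genes with the largest passing change in each direction were named for a described comparison, and any that alone passed. For each of the 7 genes, the 3 with the highest r were named, over columns and over cross differences. The values of single columns given for list genes were chosen after they were seen. A planned promoter motif search was not run, since no promoter sequences were used here.

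Alternatives were quantile normalisation, columns centred on their medians, the lowest 25% of rows left out, a robust prior with a trend, averaging the rows of each gene, 20 in place of 30 months, no age block, postnatal ages alone, and leaving out each column or age. The labels give no sex and do not say whether animals were sampled more than once.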

Additional observations from a re-analysis of the deposited data

Results flagged for a closer look

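The difference between the crosses in IFI47 was itself different before and after birth. The Piedmontese minus Wagyu difference was 1.57 log2 units higher after birth than before it (SE 0.20, limma adjusted p = 0.013), with the Piedmontese column higher at 5 of 6 postnatal ages and at 0 of 4 fetal ages. The mean levels were 11.42 in the Piedmontese cross and 11.12 in the Wagyu cross after birth, and 7.5 and 8.77 before it. The fetal columns are on other slides than the postnatal ones and had unbalanced dyes, and the part of either in this difference was not tested. Muscle fibre markers shifted the same way, with a median of 0.88 and 0 of 10 passing, and their part was not tested either.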

How the results depend on the processing

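Of 307 values under other processing, 273 kept their direction and their side of the threshold, and of the 120 under another scaling 92 did. Each of the 7 genes has 1 row, so averaging the rows of a gene could not change its estimate. Leaving out low rows or changing the prior could alter only standard errors and p-values. The count of 273 was therefore in part fixed in advance. For 280 against 60 days, centred columns gave 6 of the 7 genes higher (59.8% of all rows) and turned IFIT2 (0.70) and GBP1 (1.08), and 0 were lower with quantile normalisation, centred columns or the lowest 25% of rows left out, which drops IFIT2 itself. For 280 against 195 days centred columns turned IFIT2 (0.66) and GBP1 (0.58). Quantile normalisation turned MX2 (0.082) and IFIT2 (0.18) across birth and IFIT2 from 3 to 30 months (-0.076), where it made 5 of 7 lower. Between postnatal and fetal ages IFIT2 became 0.16 with quantile normalisation, and centred columns gave 7 of 7 higher (54.5% of all rows), with IFIT2 (0.52) and MX2 (0.75) now passing. For the crosses IFIT2 was 0.012 with centred columns, and over postnatal ages alone IDO1 was 0.0067 and IFI47 0.30. The cross difference by stage gave 0 genes with quantile normalisation and with centred columns. Apart from the scaling itself, the causes were not tested.

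Leaving out 1 column or age gave these ranges. For 280 against 60 days they were -0.15 to 0.36 for MX2, -0.14 to 0.65 for ISG15 and -0.88 to 0.59 for GBP1, with 0 to 1 genes lower. For 280 against 195 days they were -0.25 to 0.080 for IFIT2 and -0.91 to 0.57 for GBP1. Across birth they were -0.23 to 0.0060 for MX2 and -0.26 to 0.075 for IFIT2. Between postnatal and fetal ages they were -0.039 to 0.22 for MX2 and -0.17 to 0.0036 for IFIT2. For the crosses they were -0.13 to 0.086 for ISG15, -0.053 to 0.028 for IFIT2 and -0.15 to 0.0083 for IDO1. For cross by stage they were -0.13 to 0.18 for MX1, -0.25 to 0.061 for MX2 and -0.15 to 0.27 for ISG15, and 0 to 1 genes were higher. None of these genes passed in the comparison named, either as reported or with a column or age left out, except IFI47 in the last count and IFIT2 in the first.

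With 1 column per cross and age, a change between ages rests on 2 columns at each end, and a difference between the crosses at 1 age has no error of its own. Signal over background is not known from the table used, which limits the low values of IDO1, GBP1, MX2 and IFIT2 most. It also limits the low IFI47 value of the Piedmontese cross at 60 days. The same holds for low genes of the lists, such as ISG20, OAS1Z, IRGC, IFNG, IFNAR1, TLR9, KMO and TDO2.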
